A study of Homo sapiens with 2 samples.

Results

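The genes described here encode the collagens and the laminins, the structural proteins of connective tissue and of the basement membrane on which bile duct epithelium rests. They were taken from the deposited gene tables by symbol, as collagen chains (COL, a type number, A and a chain number) and laminin chains (LAMA, LAMB or LAMC and a number), with 1 row per symbol. Described are 55 genes of the 56638 in the tables, of which 44 were collagens and 11 were laminins. Sequenced RNA came from TFK1, an established cholangiocarcinoma cell line. Cells with knockdown of MBD2, a protein that binds methylated CpG sites, were set against cells with a control shRNA (sh-NC), and the labels list no other treatment for either. Both shRNAs were delivered by lentivirus from the plko.1 vector and the cells were selected with a drug, so both libraries carry an shRNA, and the labels do not say which MBD2 shRNA was sequenced. The comparison asks which genes depend on MBD2 in these cells.

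Each condition had 1 library, so there is no replicate error for any difference and no p-value is given. The counts summed to 14728814 in MBD2 knockdown and 14467406 in sh-NC. MBD2 itself had 365 counts in MBD2 knockdown and 1013 in sh-NC, a log2FC of -1.48. Log2FC is MBD2 knockdown over sh-NC, from counts scaled with the TMM method after adding 0.5 counts. It is given for genes whose counts in the libraries add up to 10 or more. The 95% interval after it is an exact Clopper-Pearson interval from how the reads of a gene divide between the libraries, and it covers counting error only. Levels are given as the deposited TPM, which are divided by gene length and can be compared between genes. In bulk RNA, fewer cells with a transcript and less of it per cell cannot be told apart.

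Collagens are trimers of alpha chains wound into a triple helix. Fibrillar collagens build the fibers of connective tissue, type IV collagen builds the mesh of the basement membrane, and further types link, anchor or span these structures. A laminin is a cross-shaped trimer of an alpha, a beta and a gamma chain that binds integrins on the epithelial cell and self-assembles into the other mesh of the basement membrane. The chains of 1 trimer come from separate genes, so the levels of partner chains are set side by side below.

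Of the 55 genes, 5 had no counts in either library (COL2A1, COL6A5, COL6A6, COL9A1 and COL19A1), and 16 in all had fewer than 10 counts over both libraries, with at most 6 counts in a library. All 16 were collagens. The other 39 genes reached 10 counts, among them all 11 laminins described and all 10 collagens of the basement membrane. Of these 39, 23 were higher in MBD2 knockdown, against 48.9% of all 17545 genes with that depth. A log2FC above 1 was found for 10 of the 39, where 5.48% of all genes lay there, and a log2FC below -1 for 3, where 5.07% did. Genes with few reads can cross these lines by counting error alone, so the counts were also made for deeper genes. Of the 26 members with at least 100 counts, 8 had a log2FC above 1, against 1.78% of the 11972 genes of that depth, and 2 had a log2FC below -1, against 1.06%. The 8 include LAMA4, which reached exactly 100 counts through MBD2 knockdown, where it had 92 of them. LAMC3, with 131 counts in MBD2 knockdown and 49 in sh-NC, also reached 100 counts through MBD2 knockdown, where it was high. The whole counting interval lay above 1 for 5 members (COL4A1, COL5A1, COL6A1, LAMA4 and LAMB3), against 1.37% of all genes, and below -1 for 3 (COL4A3, COL4A4 and COL5A3), against 0.581%. COL5A3 reached 10 counts through sh-NC alone, where it was high. COL15A1, among the 10 members above 1, reached 10 counts through MBD2 knockdown, where it was high. The members were not a random draw of genes, and they were described with earlier results of these data known. The median log2FC of the 39 was 0.15 and that of all genes was -0.01.

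**Figure D1:**
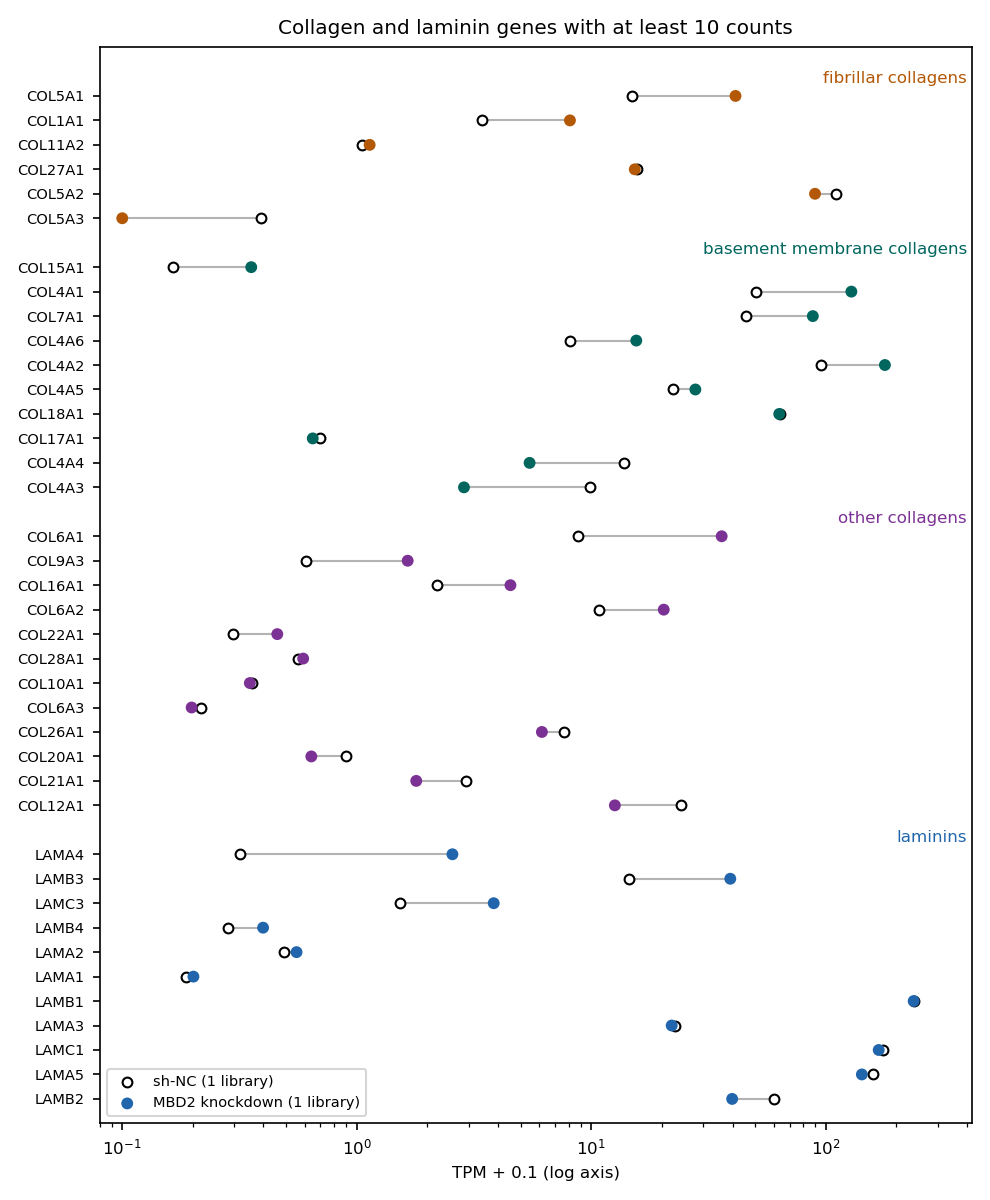
TPM plus 0.1 on a log axis for the 39 collagen and laminin genes with at least 10 counts, with 1 open point per gene for the sh-NC library and 1 filled point, colored by class, for the MBD2 knockdown library. LAMB1, LAMC1 and LAMA5 stand highest among the laminins, each with its points close together, while LAMB3 went from 14.4 to 39.0 TPM and COL4A3 from 9.82 to 2.76 TPM.

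Among the collagens of the basement membrane, the type IV chains differed in direction by gene pair. Summed over its 6 chains, type IV collagen stood at 358 TPM in MBD2 knockdown and 199.9 TPM in sh-NC. The COL4A1 and COL4A2 chains, which form the common type IV trimer, were higher in MBD2 knockdown, with a log2FC of 1.38 and 0.93. COL4A3 and COL4A4, chains of the more restricted type IV trimer known from the kidney glomerulus and lung, were lower. COL4A5, the partner of COL4A3 and COL4A4 in that trimer, and COL4A6, which assembles with COL4A5, were higher with a log2FC under 1.

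The 6 type IV genes lie in 3 head-to-head pairs, each transcribed in opposite directions from neighboring starts. By GENCODE 29 (GRCh38), COL4A1 lies on chromosome 13 from 110148963 to 110307233 on the minus strand and COL4A2 from 110305812 to 110513209 on the plus strand, so that these annotated bodies overlap, with 1421 bases between the gene starts. The RefSeq starts of the same genes lie 127 bases apart, and transcripts from them run away from each other without overlap. COL4A4 lies on chromosome 2 from 227002711 to 227164453 on the minus strand and COL4A3 from 227164565 to 227314792 on the plus strand, with 112 bases between their starts. COL4A6 lies on chromosome X from 108155607 to 108439497 on the minus strand and COL4A5 from 108439844 to 108697545 on the plus strand, with 347 bases between their starts. The windows below run from 250 bases before to 50 bases after the RefSeq start of 1 gene of each pair (GRCh38.p14), 5′ to 3′ on that gene's strand. They are shown because the members of each pair had a log2FC of the same sign and MBD2 binds methylated CpG sites. Capitals mark the CG dinucleotides.
COL4A1, chr13:110307108-110307407, minus strand: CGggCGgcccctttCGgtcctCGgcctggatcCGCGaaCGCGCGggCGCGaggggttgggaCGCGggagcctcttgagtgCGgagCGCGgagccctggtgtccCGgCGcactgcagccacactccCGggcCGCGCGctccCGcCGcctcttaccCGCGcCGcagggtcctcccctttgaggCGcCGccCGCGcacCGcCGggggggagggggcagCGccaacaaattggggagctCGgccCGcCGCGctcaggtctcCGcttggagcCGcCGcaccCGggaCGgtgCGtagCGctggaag
COL4A3, chr2:227164374-227164673, plus strand: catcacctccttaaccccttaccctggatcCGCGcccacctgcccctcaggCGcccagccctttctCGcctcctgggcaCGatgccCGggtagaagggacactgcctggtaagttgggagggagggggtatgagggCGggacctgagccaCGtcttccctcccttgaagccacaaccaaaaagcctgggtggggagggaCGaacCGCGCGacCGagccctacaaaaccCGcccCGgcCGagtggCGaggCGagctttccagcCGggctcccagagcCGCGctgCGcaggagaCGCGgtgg
COL4A5, chrX:108439588-108439887, plus strand: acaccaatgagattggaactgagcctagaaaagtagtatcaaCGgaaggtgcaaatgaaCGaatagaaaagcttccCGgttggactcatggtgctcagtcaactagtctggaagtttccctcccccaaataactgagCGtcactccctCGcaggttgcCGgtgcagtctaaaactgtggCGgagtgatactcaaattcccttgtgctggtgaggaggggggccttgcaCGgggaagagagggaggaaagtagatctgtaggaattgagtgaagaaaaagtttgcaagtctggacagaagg

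The COL4A1 window holds 45 CG dinucleotides and shares 226 of its 300 bases with the window of COL4A2, which also holds 45. The COL4A3 window holds 24 and shares 82 bases with that of COL4A4, which holds 29. The COL4A5 window holds 8 and shares 121 bases with a window of COL4A6 that holds 7. The median over all 35116 RefSeq windows is 14. The windows of COL4A1 and COL4A2 and those of COL4A3 and COL4A4 lie above this median, and those of COL4A5 and COL4A6 lie below it. Methylation was not analysed here, and whether the number of CG dinucleotides bears on the log2FC of these genes was not tested.

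COL4A1 had 4790 counts in MBD2 knockdown and 1833 in sh-NC, at levels of 128 and 50.4 TPM. The interval of its log2FC of 1.38 ran from 1.30 to 1.46. COL4A2 had 6411 and 3350 counts, or 179 and 95.7 TPM, and a log2FC of 0.93 (interval 0.87 to 0.99). COL4A2 was therefore just under the line at 1, and it was the more abundant chain in both libraries. The ratio of COL4A1 to COL4A2 in TPM was 0.719 in MBD2 knockdown and 0.527 in sh-NC. Whether the counting used strand is not given in the sources used here, and without strand, reads from any overlap, as in GENCODE 29 but not between the RefSeq starts, cannot be told apart. The antisense genes COL4A2-AS1 and COL4A2-AS2 had at most 4 counts.

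COL4A3 had 128 counts in MBD2 knockdown and 443 in sh-NC, at levels of 2.76 and 9.82 TPM. Its log2FC of -1.80 (interval -2.10 to -1.51) ranked 18 from the lowest among the 11972 genes with at least 100 counts. COL4A4 had 303 and 757 counts, or 5.36 and 13.7 TPM, with a log2FC of -1.33 (interval -1.53 to -1.14) and rank 47 from the lowest. These were the only members with at least 100 counts below -1. COL4A5 had 1026 and 801 counts and a log2FC of 0.35 (interval 0.21 to 0.48). COL4A6 had 592 and 300 counts and a log2FC of 0.97 (interval 0.77 to 1.18), so its interval reached past 1.

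The make-up of type IV transcripts differed accordingly. COL4A1 and COL4A2 made up 85.7% of type IV TPM in MBD2 knockdown and 73.1% in sh-NC. COL4A3 and COL4A4 made up 2.27% and 11.8%, and COL4A5 and COL4A6 12.0% and 15.1%. COL4A1 stood at 46.4 times the TPM of COL4A3 in MBD2 knockdown and 5.14 times in sh-NC.

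**Figure D2:**
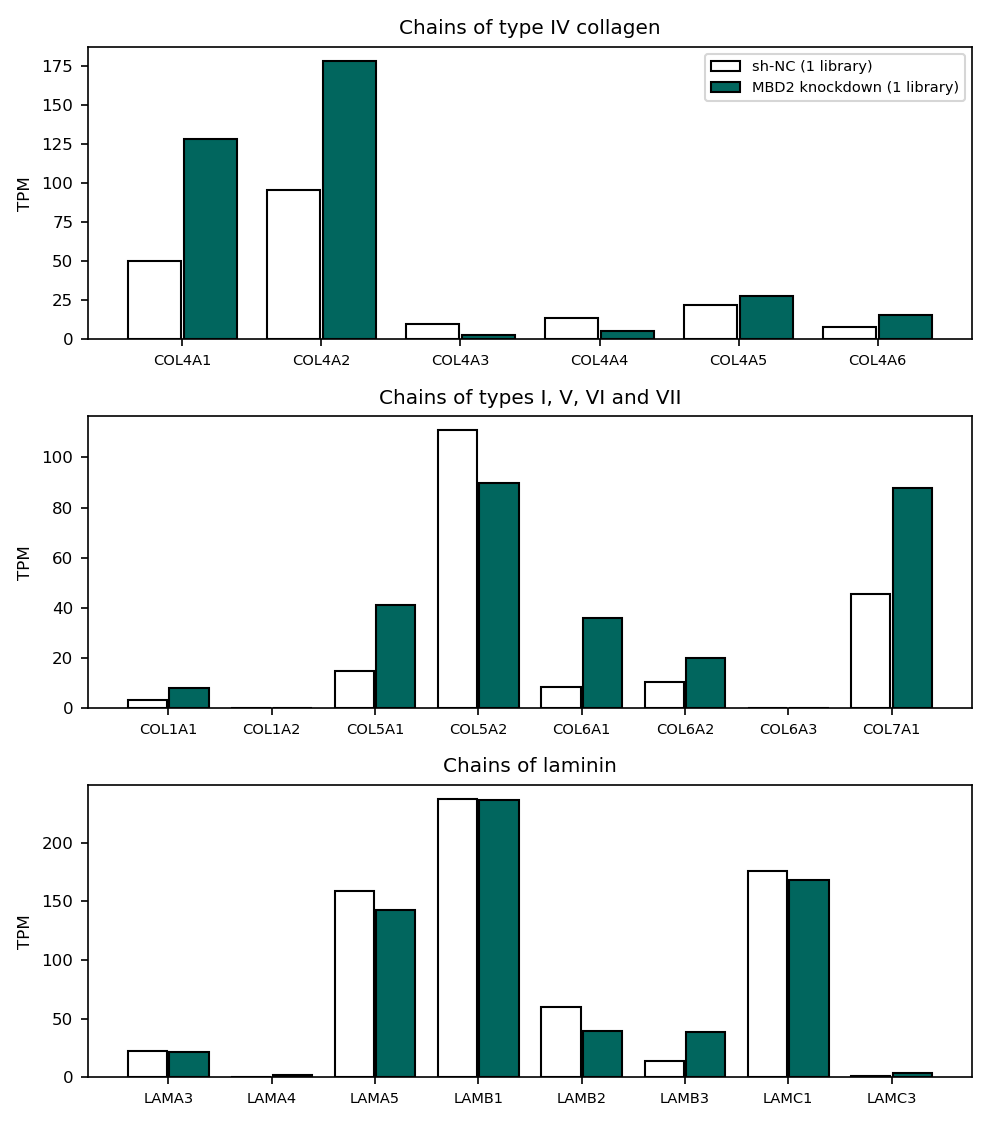
Bars from 0 give the TPM of partner chains in the sh-NC library (white) and the MBD2 knockdown library (green), for type IV collagen, for collagen types I, V, VI and VII, and for laminin. Bars have no error because each is 1 library. COL4A1 and COL4A2 stand above their sh-NC bars while COL4A3 and COL4A4 stand below theirs, and COL1A2 and COL6A3 have no visible bar beside their partners.

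The remaining basement membrane collagens sit at its borders. COL7A1, whose trimers form the anchoring fibrils that tie the basement membrane to the stroma, had 4663 counts in MBD2 knockdown and 2347 in sh-NC, equal to 87.9 and 45.4 TPM. With a log2FC of 0.98 (interval 0.91 to 1.05) it was just under the line. COL18A1, the source of endostatin, had 2387 and 2353 counts and a log2FC of 0.01 (interval -0.07 to 0.09). Its antisense gene COL18A1-AS1 had 15 and 11 counts. COL17A1, the collagen of hemidesmosomes, had 18 and 19 counts. COL15A1, a relative of COL18A1, had 8 counts in MBD2 knockdown and 2 in sh-NC. The log2FC was 1.76, with 0 inside its interval (-0.33 to 5.26), and 0.24 with log2 of TPM plus 1. It reached 10 counts through MBD2 knockdown, where it was high, and it is among the 10 members above 1. Over the 10 basement membrane collagens the median log2FC was 0.64, or 0.27 with log2 of TPM plus 1. Of the 10, 7 were higher in MBD2 knockdown, against 48.9% of all genes, and their summed level was 510 TPM against 310 TPM in sh-NC.

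Of the 11 fibrillar collagens, 6 reached 10 counts. COL5A2 was the most abundant, and the type V chains did not share a direction. COL5A1 and COL5A2 encode type V collagen, which starts and narrows fibrils. COL5A1 had 1990 counts in MBD2 knockdown and 700 in sh-NC, or 41.1 and 14.8 TPM, and a log2FC of 1.50 (interval 1.37 to 1.62). COL5A2 had 3569 and 4295 counts, or 89.8 and 111 TPM, and a log2FC of -0.28 (interval -0.34 to -0.21). The ratio of COL5A1 to COL5A2 in TPM was thus 0.458 in MBD2 knockdown and 0.134 in sh-NC. COL5A3, a further type V chain, had no counts in MBD2 knockdown and 10 in sh-NC, and the upper end of its log2FC interval was -1.17. It reached the depth filter through sh-NC alone, and its log2FC was -0.37 with log2 of TPM plus 1.

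COL1A1, a chain of type I collagen, had 308 counts in MBD2 knockdown and 124 in sh-NC, that is 8.01 and 3.31 TPM, with a log2FC of 1.30 (interval 0.998 to 1.62). Its usual partner COL1A2 had no counts and 1 count, and COL3A1, the other main collagen of fibroblasts, had 1 and 6. COL1A2 was thus close to unread in both libraries. COL27A1 was close to equal, with 678 and 676 counts, and COL11A2 had 38 and 34. The other 3 fibrillar genes (COL2A1, COL11A1 and COL24A1) had at most 3 counts in a library. The median log2FC of the 6 tested was 0.07, but -0.14 with at least 1 count and 0.65 with at least 100 counts. Their class summed to 155 TPM against 146 TPM, of which COL5A2 gave 57.9% in MBD2 knockdown and 75.9% in sh-NC.

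Among the other collagens, COL6A1 and COL6A2 were higher in MBD2 knockdown. Type VI collagen forms beaded filaments from COL6A1, COL6A2 and 1 further chain, most often COL6A3. COL6A1, on chromosome 21 from 45981737 to 46005050, had 869 counts in MBD2 knockdown and 204 in sh-NC, at levels of 35.9 and 8.64 TPM. Its log2FC of 2.08 (interval 1.86 to 2.31) was the highest of the collagens with at least 10 counts and ranked 44 from the highest among genes with at least 100 counts. COL6A2, its neighbor on the same strand from 46098097 to 46132849, had 401 and 206 counts, or 20.3 and 10.7 TPM, and a log2FC of 0.95 (interval 0.71 to 1.20). COL6A1 was below COL6A2 in sh-NC, at a ratio of 0.809 in TPM, and above it in MBD2 knockdown, at 1.77. The further chain was hardly present, with 6 and 7 counts for COL6A3 and none for COL6A5 or COL6A6.

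The FACIT collagens, which decorate the surface of fibrils, did not share a direction. COL12A1 had 838 counts in MBD2 knockdown and 1568 in sh-NC, or 12.5 and 24.0 TPM, and a log2FC of -0.91 (interval -1.04 to -0.79). COL16A1 had 145 and 67 counts and a log2FC of 1.10 (interval 0.68 to 1.54). COL21A1, with 42 and 68 counts, had a log2FC of -0.70 (interval -1.29 to -0.13). COL9A3, with 22 and 7 counts, had a log2FC of 1.58 (interval 0.37 to 3.11). COL20A1 and COL22A1 had between 7 and 36 counts and intervals that included 0. So did COL10A1, COL26A1 and COL28A1, of which COL26A1 had the most reads, with 105 and 127 counts. The membrane-spanning collagens COL13A1, COL23A1 and COL25A1 stayed under 10 counts, and COL13A1 had 6 in MBD2 knockdown and none in sh-NC. With log2 of TPM plus 1, COL16A1 was at 0.81 and COL9A3 at 0.76, both under the line. The median log2FC of the 12 other collagens tested was 0.05, but -0.01 with at least 1 count and 0.33 with at least 100 counts.

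**Figure D3:**
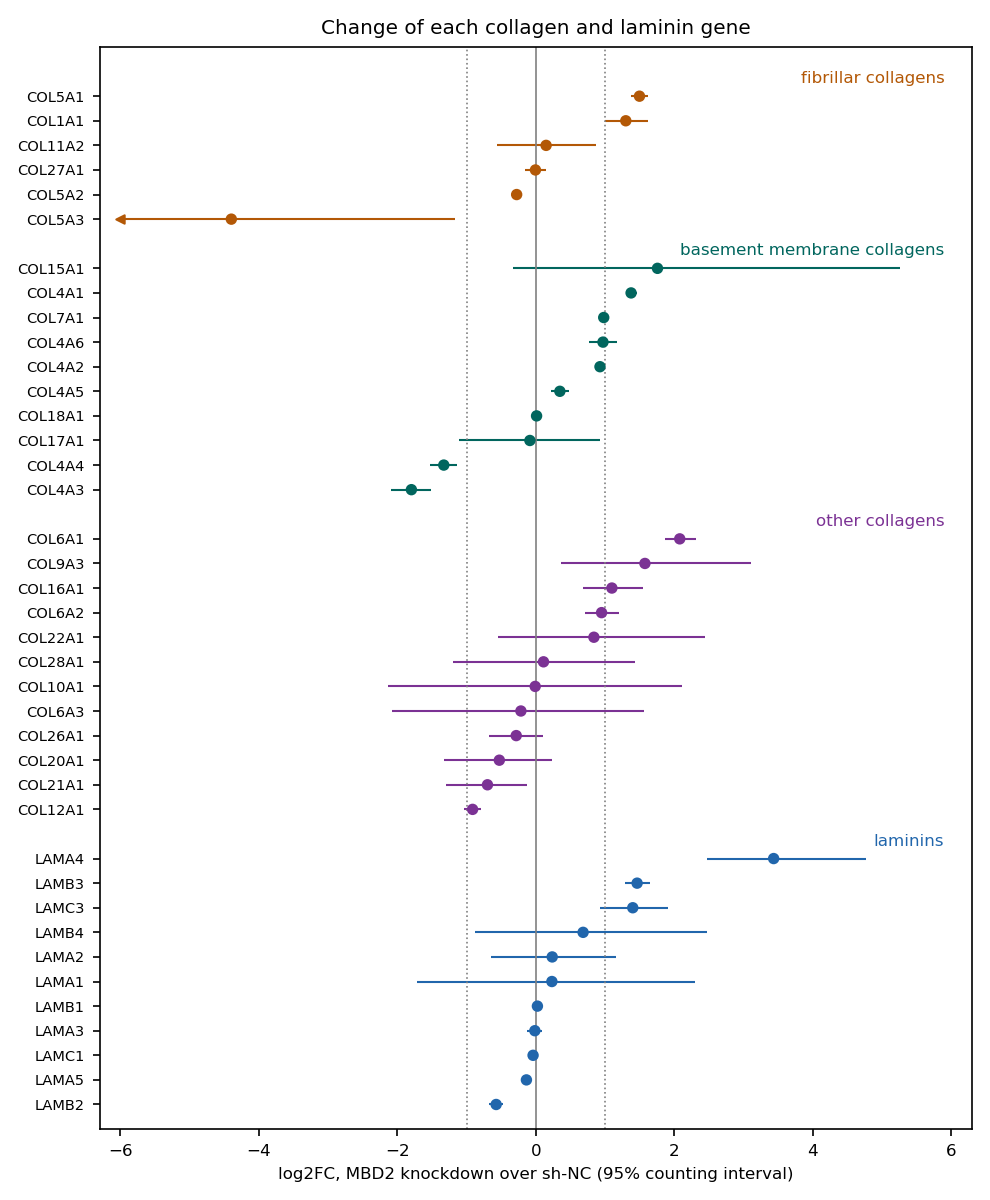
Log2FC of MBD2 knockdown over sh-NC for the 39 collagen and laminin genes with at least 10 counts, 1 point per gene with its 95% counting interval as a line, sorted within each class. Dotted lines mark 1 and -1, and an arrow marks the open interval of COL5A3, which had no counts in MBD2 knockdown. LAMA4, LAMB3, COL6A1, COL5A1 and COL4A1 lie to the right of 1 with their whole interval.

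Of the 11 laminins, 3 had a log2FC above 1 (LAMA4, LAMB3 and LAMC3), against 5.48% of all genes. With log2 of TPM plus 1, LAMC3 was at 0.96, under the line, and LAMA4 at 1.50. None was below -1, where 5.07% of all genes lay, so a count of 0 among 11 is near the background. The most abundant chains were nearly equal. LAMA5, LAMB1 and LAMC1 form the laminin found in most epithelial basement membranes. LAMB1 had 7805 counts in MBD2 knockdown and 7630 in sh-NC, or 237 TPM in each, with a log2FC of 0.02. LAMC1 had 7576 and 7735 counts, or 168 and 176 TPM, with a log2FC of -0.04. LAMA5 had 9299 and 10148 counts, or 142 and 159 TPM, with a log2FC of -0.13. All 3 intervals lay within -0.18 and 0.07. The 11 laminins summed to 655 TPM in MBD2 knockdown and 672 TPM in sh-NC, and their median log2FC was 0.23, the value of LAMA1 with 6 and 5 counts. The median was 0.0053 over the 8 laminins with at least 100 counts and 0.02 with log2 of TPM plus 1.

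LAMA3 and LAMB3 are chains of the laminin that anchors epithelial cells through hemidesmosomes and that migrating epithelium deposits. LAMB3 (chromosome 1 from 209614870 to 209652466) had 961 counts in MBD2 knockdown and 346 in sh-NC, that is 39.0 and 14.4 TPM, and a log2FC of 1.46 (interval 1.29 to 1.65). LAMA3 had 1336 and 1340 counts, or 21.9 and 22.6 TPM, and a log2FC of -0.01 (interval -0.12 to 0.10). The beta chain was thus higher without a higher alpha chain. LAMB3 stood at 1.78 times the TPM of LAMA3 in MBD2 knockdown and 0.639 times in sh-NC. LAMA3 has a long and a short form that start at separate promoters, and the tables give a single value for both. The size of the ratio of LAMB3 to LAMA3 in TPM therefore depends on the gene length used for LAMA3.

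Windows of LAMB3 and LAMA3 follow because these partner chains differed in log2FC. Capitals mark the pattern TGANTCA, with any base as N, used here as a loose form of the AP-1 motif. A transcription factor active in epithelium binds the AP-1 motif. The motif was searched on both strands, and a site read on both was counted once.
LAMB3, chr1:209651325-209651624, minus strand, the last of its 3 RefSeq windows: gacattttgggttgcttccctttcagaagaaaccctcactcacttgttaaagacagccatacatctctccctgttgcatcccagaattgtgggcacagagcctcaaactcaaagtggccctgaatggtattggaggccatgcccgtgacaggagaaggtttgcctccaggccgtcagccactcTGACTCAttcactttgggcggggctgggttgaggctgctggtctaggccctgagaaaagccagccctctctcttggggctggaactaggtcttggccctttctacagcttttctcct
LAMA3, chr18:23872770-23873069, plus strand, a start within the annotated gene: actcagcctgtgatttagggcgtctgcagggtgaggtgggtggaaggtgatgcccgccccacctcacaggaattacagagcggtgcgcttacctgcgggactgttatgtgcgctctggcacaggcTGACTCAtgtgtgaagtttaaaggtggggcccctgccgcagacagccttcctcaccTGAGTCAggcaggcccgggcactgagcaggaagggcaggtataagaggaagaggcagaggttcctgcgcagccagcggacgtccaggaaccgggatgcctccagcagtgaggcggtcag

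The LAMB3 window holds these letters once, beginning at base -67 from the start, and the LAMA3 window at 2 positions, -125 and -69. The other 2 windows of LAMB3 do not hold them. Of the 55 windows of members, 3 hold the pattern (5.45%), against 7.71% of all 35116 windows. The remaining window belongs to COL10A1, with A or T as the center base, whereas LAMB3 and LAMA3 have C or G there. Whether these letters bear on the level of LAMB3 or LAMA3 was not tested.

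The remaining laminin chains did not share a direction. LAMA4, an alpha chain typical of blood vessel and mesenchymal basement membranes, had 92 counts in MBD2 knockdown and 8 in sh-NC, at levels of 2.46 and 0.219 TPM. Its log2FC of 3.44 (interval 2.48 to 4.77) was the highest of the 39 members. With 100 counts in all, LAMA4 just reached the deeper class, and did so through MBD2 knockdown, where it was high. LAMC3, a gamma chain, had 131 and 49 counts, or 3.74 and 1.43 TPM, and a log2FC of 1.40 (interval 0.93 to 1.91). LAMB2, a beta chain that can replace LAMB1, was lower, with 1290 and 1906 counts, or 39.8 and 60.3 TPM, and a log2FC of -0.57 (interval -0.68 to -0.47). LAMA1, LAMA2 and LAMB4 had between 5 and 25 counts and intervals that included 0.

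Among the alpha and the beta chains the leading chain kept its place. LAMA5 gave 85.1% of alpha chain TPM in MBD2 knockdown and 87.3% in sh-NC, and LAMB1 gave 75.0% and 76.0% of beta chain TPM. LAMB3 gave 12.4% and 4.62% of the beta chains, and LAMB2 gave 12.6% and 19.3%. The plot of chain levels shows the tall, nearly even bars of LAMA5, LAMB1 and LAMC1 beside shorter ones that were not all even. LAMB3 and LAMB2 differed between the libraries, whereas LAMA3 had a log2FC of -0.01.

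**Figure D4:**
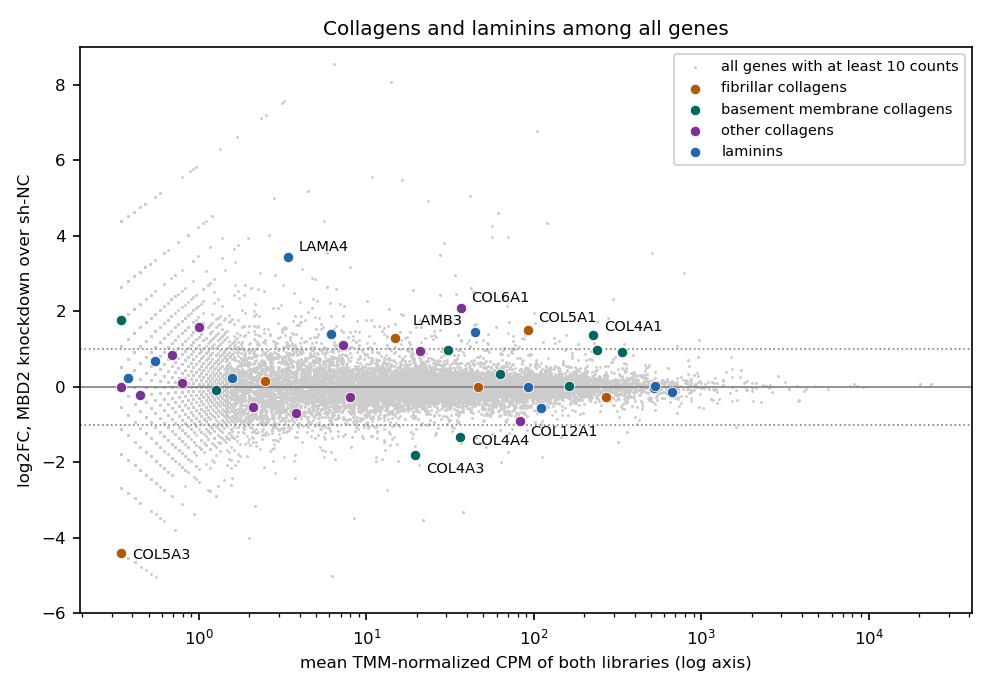
Log2FC against the mean TMM-normalized CPM of both libraries on a log axis, with 1 gray point for each of the 17545 genes with at least 10 counts and the 39 collagen and laminin genes in color. Dotted lines mark 1 and -1. COL4A1, COL5A1, LAMB3 and COL6A1 lie above the bulk of genes of their level, and COL4A3 and COL4A4 below it.

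CG dinucleotides at the gene starts were also counted for the members by their log2FC. Of the 55 genes, 41 had a RefSeq window, and COL1A1, COL6A1, COL5A2 and LAMC3 were among those without. The median was 22 CG dinucleotides over 9 windows of 6 genes above 1, 24 over 3 windows of 3 genes below -1, and 10 over 31 windows of 22 genes between. A gene counted once for each annotated start, and some windows overlap, such as the 2 of COL5A1. The 12 windows of 10 genes under 10 counts had a median of 20, close to those of the genes past 1 or -1. LAMA4, with the highest log2FC, had 8, and COL15A1 had 45.

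The other genes of the matrix pathway were taken from 5 lists of enzymes, partners, receptors and TGF-beta signalling, 83 genes of which 74 had at least 10 counts. Of these 74, 9 had a log2FC above 1 and 1 had a log2FC below -1, against the 5.48% and 5.07% of all genes. With log2 of TPM plus 1, 3 of the 74 were above 1 and 0 below -1, so most of these calls were lost. Among enzymes and chaperones that fold and trim collagen, 22 of 27 were higher in MBD2 knockdown, against 48.9% of all genes, with a median log2FC of 0.31. A log2FC above 1 was found for 2 of the 27, near the 5.48% of all genes, and for 0 of the 22 with at least 100 counts. SERPINH1, the chaperone of the collagen triple helix, had 1779 counts in MBD2 knockdown and 987 in sh-NC and a log2FC of 0.84 (interval 0.73 to 0.95). TLL1, a protease that trims procollagen, had 53 and 18 counts and a log2FC of 1.52.

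Among the cross-linking enzymes, 3 of 6 were above 1, against 5.48% of all genes with at least 10 counts. The whole counting interval lay above 1 for 1 of the 6, TGM2, against 1.37% of all genes. TGM2, a transglutaminase, had 6986 and 3134 counts and a log2FC of 1.15 (interval 1.09 to 1.21). PXDN, the peroxidase that cross-links type IV collagen, had 187 and 78 counts and a log2FC of 1.25 (interval 0.86 to 1.65). LOX, a lysyl oxidase, had 46 and 17 counts and a log2FC of 1.40 (interval 0.60 to 2.32).

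Among the partners in the basement membrane, 3 of 13 were above 1, against 5.48% of all genes. In all 6 of 13 were higher, near the 48.9% of all genes. SPARC, which binds type IV collagen, had 468 counts in MBD2 knockdown and 10 in sh-NC, and a log2FC of 5.47 (interval 4.65 to 6.61). NID1, the nidogen that bridges laminin and type IV collagen, had 170 and 62 counts and a log2FC of 1.44, whereas NID2 had 153 and 152. TINAGL1 had 68 and 31 counts and a log2FC of 1.11. Perlecan (HSPG2) was equal, with 2727 and 2712 counts. The lowest of the 13 was SMOC1, with 319 and 594 counts and a log2FC of -0.90 (interval -1.11 to -0.71). Next came NTN4, with 1121 and 1619 counts and a log2FC of -0.54, and FRAS1, with 1119 and 1469 counts and -0.40. Of the 15 receptors tested, ITGA2, the alpha chain of a collagen-binding integrin, was above 1, with 1460 and 711 counts and a log2FC of 1.03. ITGA10 was below -1, with 8 and 35 counts. With 1 of 15 on each side and 8 of 15 higher, the receptors were near the 5.48%, 5.07% and 48.9% of all genes. The laminin-binding chains ITGA3, ITGA6 and ITGB4 had log2FC values of -0.17, -0.20 and 0.06. None of the 13 TGF-beta ligands, receptors and readouts lay past 1 or -1, which is near the 5.48% and 5.07% of all genes, and TGFBI was the highest of them with a log2FC of 0.80.

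Markers of the cell type and of other cells were set beside these results. All 8 biliary epithelial markers were at 1 TPM or more in both libraries, with a sum of 4837 TPM in MBD2 knockdown and 6047 TPM in sh-NC. KRT8 alone gave 3006 and 3890 TPM of these. The median log2FC of the 8 was -0.35, with CDH1 (0.40) and KRT19 (0.75) as the 2 that were higher, against 48.9% of all genes. Of the 12 fibroblast markers, 5 reached 10 counts, led by FN1 and VIM, and the list summed to 712 TPM in MBD2 knockdown and 664 TPM in sh-NC. Of these 5, THY1 was above 1, against 5.48% of all genes, with 14 and 6 counts and a log2FC interval from -0.26 to 2.88. DCN had 1 count in each library, PDGFRB 1 in each, and FAP none. Among the 5 endothelial markers, PECAM1, VWF, KDR and TEK had no counts and CDH5 had 1 in sh-NC. Of the 7 leukocyte markers, CORO1A (56 and 19 counts) and LAPTM5 (29 and 3 counts) were the 2 with at least 10 counts. Both were above 1, against 5.48% of all genes, but LAPTM5 reached 10 counts through MBD2 knockdown, where it was high. The other leukocyte markers had at most 4 counts. The summed leukocyte list stood at 6.09 TPM in MBD2 knockdown and 2.32 TPM in sh-NC, and its part in the results on the matrix genes was not tested.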

How the data were processed

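RNA from TFK1 cells was sequenced in 1 library of MBD2 knockdown and 1 of sh-NC. The submitters' processing notes name fastp, HISAT2 2.1.0, featureCounts, DESeq 1.18.1 and GRCh38.p13. The authors deposited whole-number read counts per gene, without normalization, and TPM per gene. Start positions in the tables equalled those of GENCODE 29 (GRCh38) for 0 of the 55 members, so positions came from GENCODE 29 by Ensembl identifier. Rows repeating a symbol and its values were reduced from 63677 to 56638 genes.

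TMM factors came from edgeR 4.0.16 in R 4.3.3, with a prior of 0.5 counts and a minimum of 10 counts over both libraries, and intervals from scipy 1.17.1. A result for 1 gene is not reported here. The scripts were tested on simulated counts. The members and lists were chosen with earlier results of these data known. The rule named members with at least 10 counts, and those pathway genes past a log2FC of 1 or -1 that reached 50 counts in the higher library. Further pathway and marker genes, members under 10 counts, motifs and windows were picked for naming with the values in view. Other scalings tried were DESeq2 1.42.0, upper quartile and total counts, beside priors of 2 and 0.1, log2 of TPM plus 0.1 or 1, all deposited rows, and minimums of 1 and 100 counts.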

Additional observations from a re-analysis of the deposited data

How the results depend on the processing

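Of the 13 members past 1 or -1, 8 stayed past it under all 8 alternatives of scaling, prior, unit and rows (COL1A1, COL4A1, COL4A3, COL4A4, COL5A1, COL6A1, LAMA4 and LAMB3). The other 5 (COL5A3, COL9A3, COL15A1, COL16A1 and LAMC3) were lost with log2 of TPM plus 1 and with no other of these 8. With TPM plus 1 there were 6 members above 1, 374 genes above 1 and 340 below -1 among all genes, and 3 and 0 among the matrix pathway genes, and LAMA4 moved to 1.50 and COL5A3 to -0.37. With at least 1 count there were 8 members below -1, 4523 and 4303 of all genes above 1 and below -1, and 4 pathway genes below -1. With at least 100 counts there were 213 and 127 of all genes, and 5 and 0 of the pathway genes, and the median of the fibrillar collagens was 0.65, over the 4 genes left. Total counts and the prior of 0.1 each gave 2 pathway genes below -1. The fibrillar median of 0.07 was -0.14 with at least 1 count. The median of the other collagens, 0.05, was -0.01 with at least 1 count and 0.33 with at least 100. That of the laminins, 0.23, was 0.0053 with at least 100 counts and 0.02 with TPM plus 1, and that of the basement membrane collagens, 0.64, was 0.27 with TPM plus 1. Of the 39 members, 5 changed sign under an alternative (COL10A1, COL18A1, COL27A1, LAMA3 and LAMB1), all close to 0. No paired analysis was possible because there is a single library per condition. Depth limits what can be said of COL15A1 and COL9A3, and the spread between cultures is unknown.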
